A study of Mus musculus with 27 samples.

Results

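The transcription factor NRF2 (gene Nfe2l2), its controllers and its antioxidant and glutathione targets were followed in cultured mouse glia across 9 treatment groups. The set holds 38 genes, picked by name from the 54532 genes of the deposited count table, and all 38 were found. All 38 also passed the filter on low counts, among 16073 genes tested in experiment 1 and 15604 in experiment 2. Mixed glia came from the cortex of C57BL/6 pups at postnatal days 3 to 6, grew for 14 days in vitro, and were treated for 24 h before polyadenylated RNA was sequenced. Experiment 1 had 5 groups. They received LPS with IFN-gamma and bryostatin, LPS with IFN-gamma, LPS with bryostatin, LPS alone, or nothing. Experiment 2 had 4 groups, which received IL-4 with bryostatin, IL-4 alone, bryostatin alone, or nothing. Each group had 3 libraries, and no genetic change was made in any group. LPS, a bacterial cell wall component sensed by Toll-like receptor 4, was given at 100 ng/mL. The cytokines IFN-gamma and IL-4 were given at 20 ng/mL and bryostatin, a modulator of protein kinase C, at 50 nM. Bryostatin without any other agent was tested only in experiment 2, and IFN-gamma only together with LPS.

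NRF2 is held low by KEAP1, which marks it for degradation, and electrophiles or oxidants that modify KEAP1 let NRF2 build up and bind antioxidant response elements with small MAF proteins. Its targets import cystine, make and recycle glutathione, reduce thioredoxin, supply NADPH and break down haem and reactive carbonyls. In brain, astrocytes are known for a strong NRF2 response and for supplying glutathione precursors to neurons. NRF2 activity is controlled largely at the protein level, which was not measured here. KEAP1 and NRF2 mRNA are therefore given as levels of those transcripts only.

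Total counts ran from 17230058 to 28687281 per library. Counts of a member in a library lay between 85 (Osgin1) and 89745 (Prdx1), so no member was near the detection limit in any library. The libraries labelled untreated replicate 1 went against their labels in both experiments. Over 14250 genes, the one labelled experiment 1 had a Pearson r (log2 of CPM + 1) of 0.965 and 0.966 with its own untreated group and 0.995 with each of untreated replicates 2 and 3 of experiment 2. The one labelled experiment 2 had an r of 0.954 and 0.944 with its own group, and 0.98 and 0.97 with untreated replicates 2 and 3 of experiment 1. Replicates 2 and 3 had an r of 0.995 with each other in experiment 1 and 0.994 in experiment 2. The libraries labelled untreated replicate 1 were kept under their labels. Member calls in every comparison with untreated cells are given with and without them. Marker sums, marker calls and FPKM of untreated cells are given with them only. Within experiment 2, bryostatin replicate 2 also stood apart from its group (r of 0.976, against 0.995 between the other 2). Replicate 2 of IL-4 with bryostatin had an r of 0.992 and 0.994 with its group and is counted with untreated replicate 1 and bryostatin replicate 2 of experiment 2 among the 3 libraries that stand apart. Some libraries deviated along gene length from the mean of the other 2 libraries of their group. The Spearman correlation of that deviation with length, across genes, was -0.55 for bryostatin replicate 2 (0.46 and 0.47 for the other 2 libraries), -0.43 for replicate 2 of IL-4 with bryostatin (0.36 and 0.22) and -0.4 for untreated replicate 1 of experiment 2 (0.26 and 0.43). In experiment 1 it was -0.46 for LPS with IFN-gamma replicate 1 (0.36 and 0.28), -0.43 for replicate 3 of LPS with IFN-gamma and bryostatin (0.31 and 0.2) and -0.35 for LPS with bryostatin replicate 1 (0.15 and 0.27). The part of this trend in the members' changes was not tested. Markers of astrocytes, microglia, the oligodendrocyte lineage, endothelium, fibroblasts, neurons and ependyma were measured beside the members, and no marker was at 0 in all 27 libraries. Cldn5, which defines endothelium, was at 0 in every library except replicate 3 of LPS with IFN-gamma and bryostatin, and Mog, of mature oligodendrocytes, was at or below 0.155 CPM in each library.

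Promoters were read for the 32 members that RefSeq windows on GRCm38.p6 (mm10) cover. Each window spans 250 bases before to 50 after a transcription start. The antioxidant response element core TGACNNNGC, read on both strands, was found in 12 of the 32 members, or 37.5%, against 14.0% of 27025 genes with a window. By window, 13 of 43 member windows held it, or 30.2%, against 12.4% of 32851. The AP-1 element TGANTCA, whose letters can overlap the core, was in 5 of 32 members, or 15.6%, against 8.97% of genes. Both overlapped each other in Prdx1 and Me1, 6.25% of members, against 0.503% of genes. A match is a run of letters and not a shown binding site. No window was given for Hmox1, Gclc, Gsr, Gsta4, Prdx6 and Abcc1. The bases before the start are shown for Gclm, Srxn1 and Txnrd1, which are among the members most raised by IFN-gamma and have a match in their window. Capitals mark the core in Gclm, the same core in 1 of the 3 starts of Txnrd1, and AP-1 elements in Srxn1, each on the plus strand, 5′ to 3′.
Gclm, chr3:122245307-122245556: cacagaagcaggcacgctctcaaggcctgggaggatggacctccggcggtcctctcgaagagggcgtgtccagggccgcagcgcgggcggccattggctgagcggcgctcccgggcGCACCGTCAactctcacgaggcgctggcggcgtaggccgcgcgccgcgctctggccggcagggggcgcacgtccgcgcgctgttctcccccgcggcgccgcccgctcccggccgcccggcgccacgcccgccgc
Srxn1, chr2:152105274-152105523: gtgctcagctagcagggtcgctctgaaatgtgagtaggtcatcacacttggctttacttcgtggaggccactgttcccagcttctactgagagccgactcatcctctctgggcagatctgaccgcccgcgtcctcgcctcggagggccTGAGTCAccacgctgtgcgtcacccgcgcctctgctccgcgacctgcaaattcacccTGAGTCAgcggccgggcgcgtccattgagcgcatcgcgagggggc
Txnrd1, chr10:82858956-82859205: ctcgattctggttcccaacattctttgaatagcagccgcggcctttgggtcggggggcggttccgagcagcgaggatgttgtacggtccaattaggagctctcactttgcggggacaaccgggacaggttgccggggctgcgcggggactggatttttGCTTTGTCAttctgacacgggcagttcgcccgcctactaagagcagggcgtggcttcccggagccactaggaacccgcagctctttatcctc

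In Gclm and Txnrd1 the match lies on the other strand, 134 and 92 bases before the start. In Srxn1 the AP-1 elements begin 102 and 45 bases before it, and a core match lies at base 29 after it, as GCTAGGTCA. Prdx1 holds GCTGAGTCA 133 bases before its start, where the last 7 letters are also an AP-1 element.

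**Figure D1:**
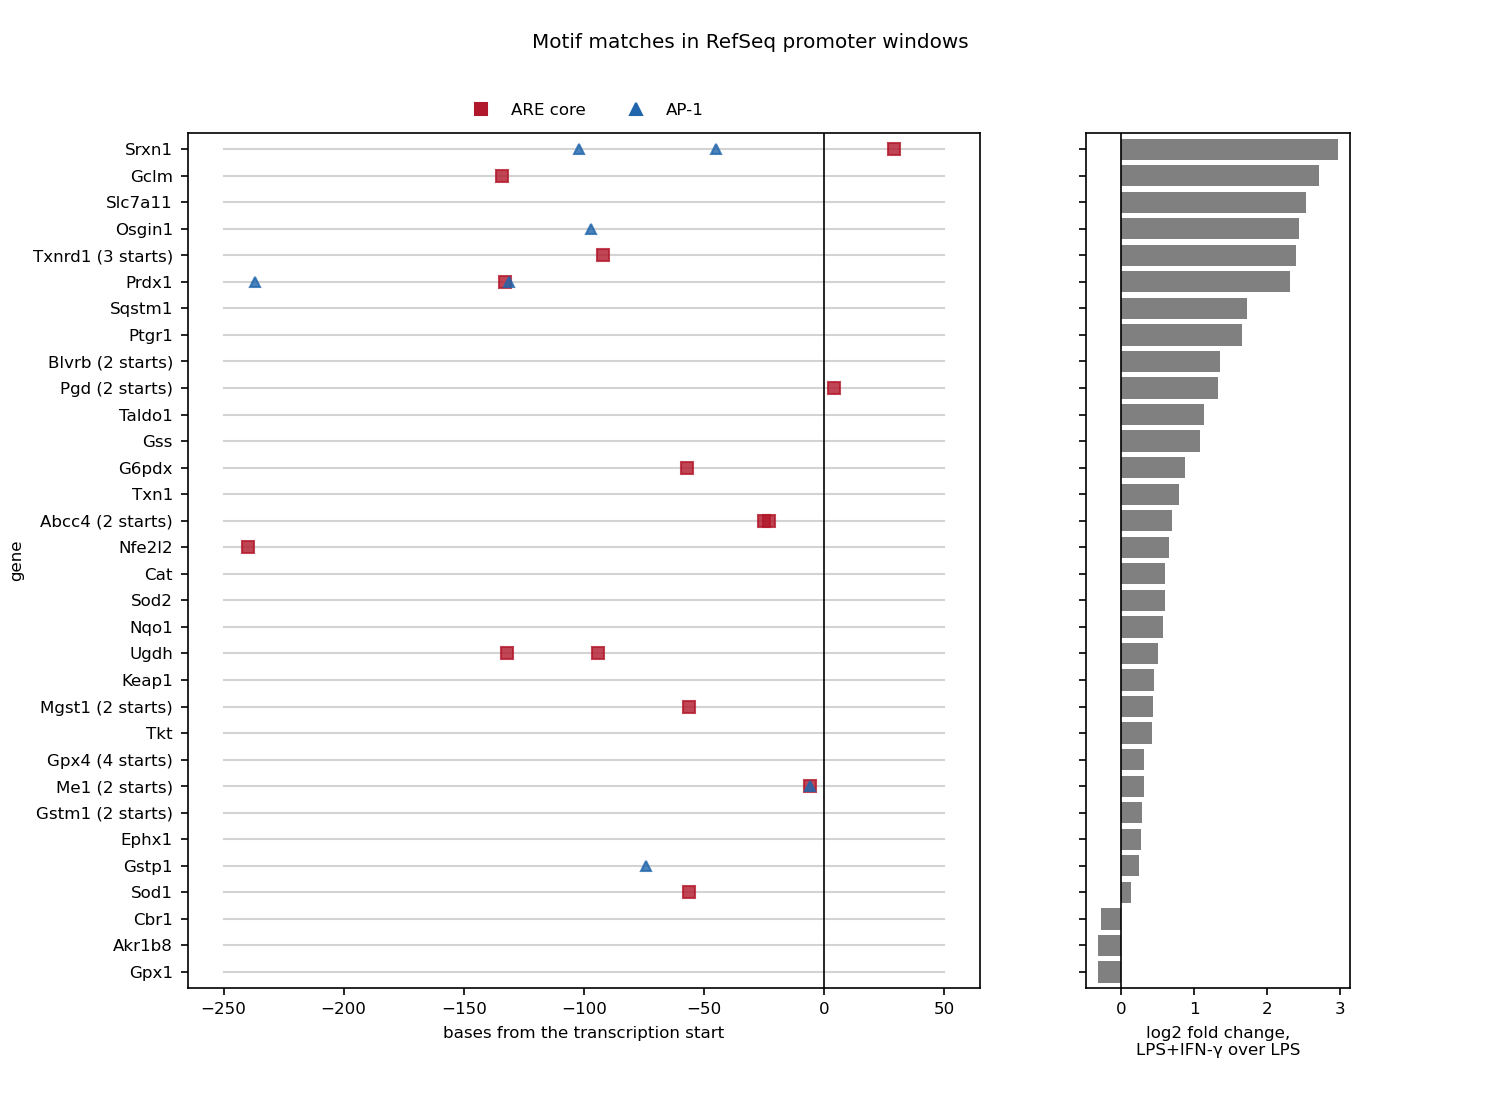
Positions of matches in the windows of 32 members, in bases from the transcription start (left; red squares, antioxidant response element core; blue triangles, AP-1), and the log2 fold change of LPS with IFN-gamma over LPS (right bars). Genes run from the highest change at the top, and matches run from Srxn1 at 2.97 to Sod1 at 0.14, while the 3 lowest genes, Cbr1, Gpx1 and Akr1b8, hold none.

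The first question was what IFN-gamma added to LPS did to the set. With both agents, 31 of the 38 members rose and 2 fell relative to LPS alone, while 5 did not pass the test (edgeR quasi-likelihood test, adjusted p under 0.05 over all genes, the rule for every call here). Over all genes tested, 19.2% were called higher and 16.8% lower. The median log2 change was 0.68 over the members and -0.01 over all genes, and 16 members rose over 2-fold while none fell over 2-fold. Summed over the 38 members, the level was 18964 to 21415 CPM (counts scaled to the library's total, with TMM factors) in LPS with IFN-gamma, against 7269 to 7477 CPM in LPS. The labels do not say whether the 3 libraries of a group came from separate cultures, so a p-value here rests on the spread among the libraries, some or all of which may be technical.

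The same step was measured in other libraries that also received bryostatin. There 33 members rose, 1 fell and 4 did not pass, where 18.9% of all genes were called higher and 17.9% lower. The median log2 change was 0.92 over the members and -0.02 over all genes, and 18 members rose over 2-fold. The summed level was 21081 to 26117 CPM in LPS with IFN-gamma and bryostatin, against 6430 to 6776 CPM in LPS with bryostatin. These groups share no library with the pair without bryostatin. Called higher in both were 30 members, and none was called in opposite directions. Akr1b8 was called lower in both, with 23.4, 24.4 and 28.1 CPM in LPS with IFN-gamma and bryostatin, against 32.4, 30.9 and 31.3 CPM in LPS with bryostatin, a log2 change of -0.32 ± 0.1 whose call was lost without replicate 1 or 3 of LPS with bryostatin or replicate 1 or 2 of LPS with IFN-gamma and bryostatin.

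**Figure D2:**
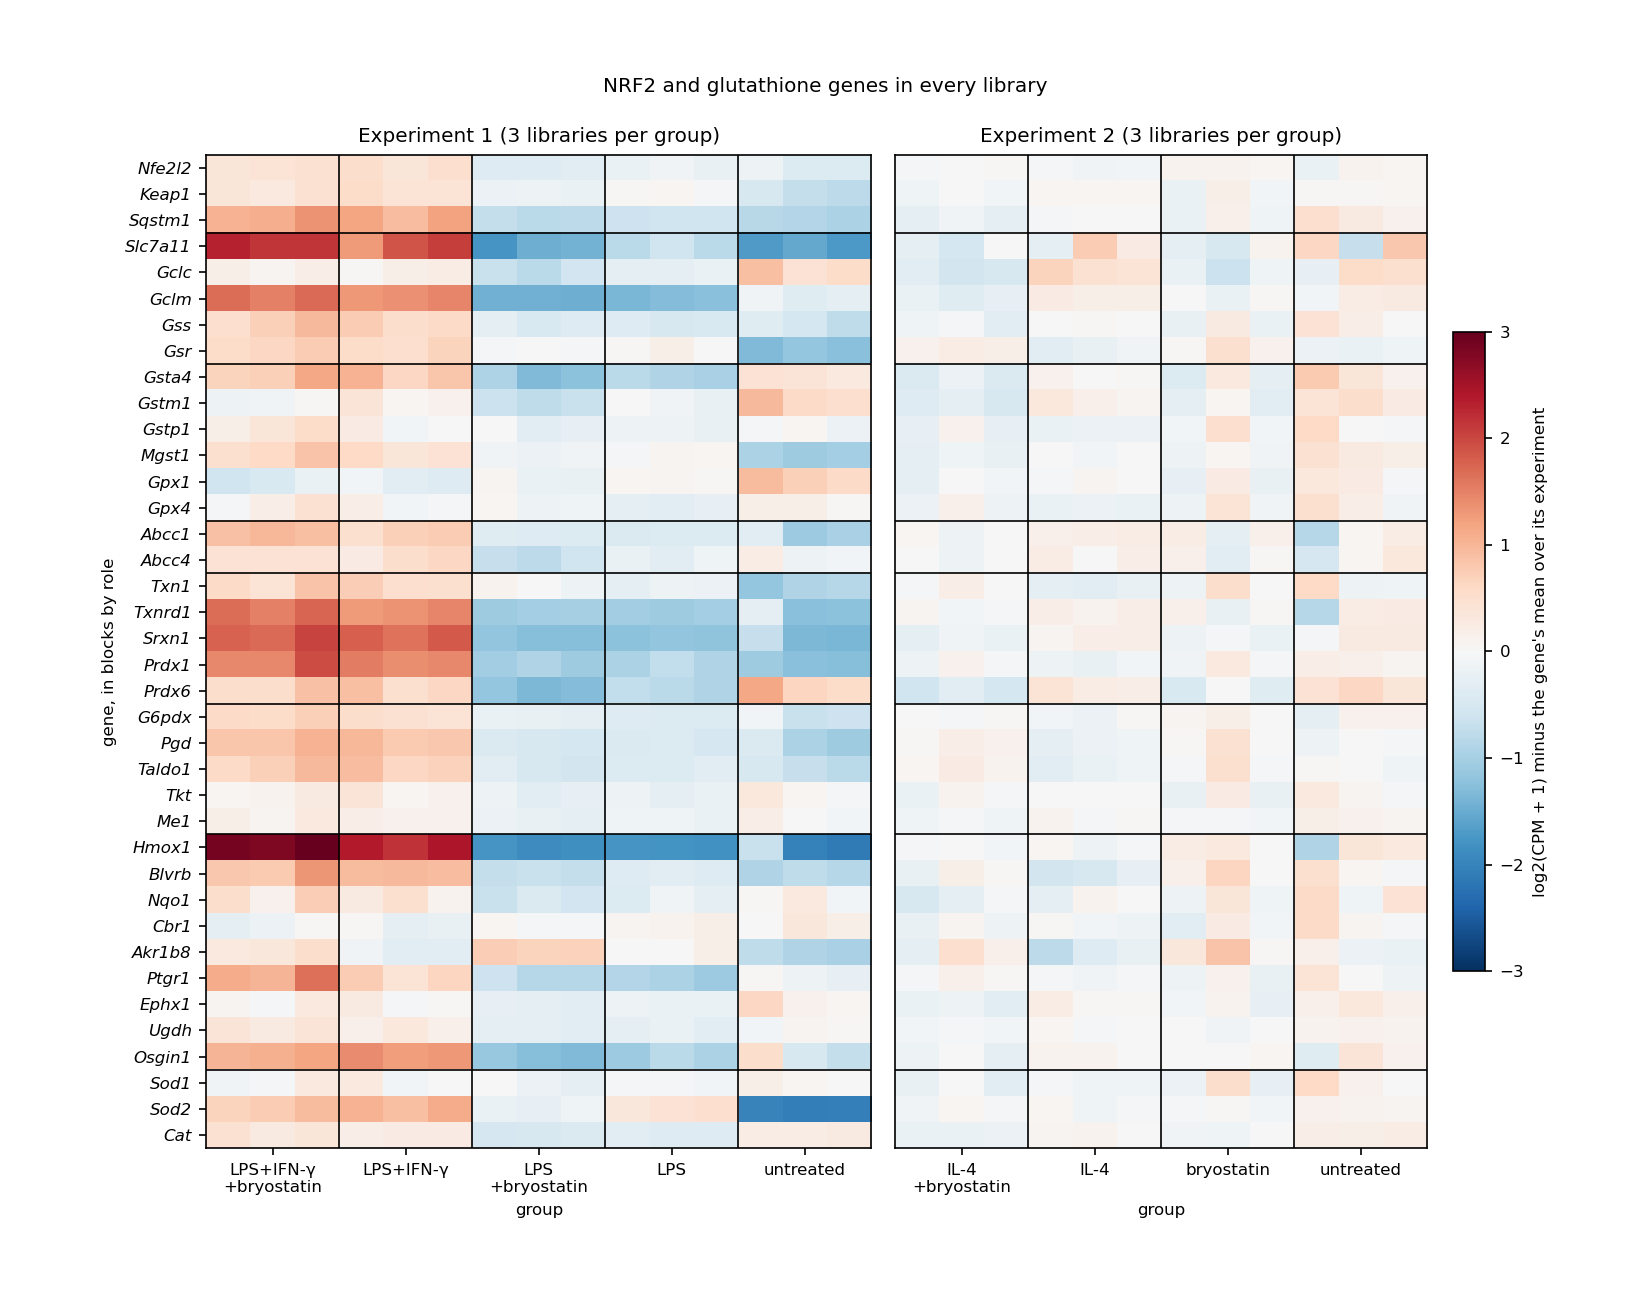
Level of the 38 genes in each of 27 libraries, as log2(CPM + 1) minus the gene's mean over its experiment (red, above; blue, below), with 3 library columns per group and rows in blocks by role. The 6 libraries with IFN-gamma are above the experiment mean for most rows, and replicate 1 of untreated cells differs from replicates 2 and 3 in both experiments.

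NRF2 and its controllers all rose with IFN-gamma. Nfe2l2 stood at 525, 468 and 519 CPM in LPS with IFN-gamma, against 314, 339 and 312 CPM in LPS, a log2 change of 0.65 ± 0.08 (SE; adjusted p = 1.3e-05). Keap1 had 139, 127 and 127 CPM in LPS with IFN-gamma, against 97.6, 98.4 and 92.0 CPM in LPS, a change of 0.45 ± 0.08. Neither gene's libraries overlapped between the groups, and both changes stayed under 2-fold. Sqstm1, which encodes p62, the autophagy receptor that binds KEAP1, averaged 2004 ± 209 CPM in LPS with IFN-gamma and 607 ± 4.69 CPM in LPS (SD, n = 3 each). With bryostatin present the log2 changes were 0.79 ± 0.08 for Nfe2l2, 0.55 ± 0.08 for Keap1 and 1.93 ± 0.1 for Sqstm1.

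All 5 genes of glutathione synthesis and recycling rose, with a median log2 change of 1.08. Gclm, the modifier subunit of the enzyme that joins glutamate and cysteine, reached 467, 491 and 522 CPM in LPS with IFN-gamma, against 71.9, 75.9 and 77.8 CPM in LPS. Its log2 change was 2.71 ± 0.08 (adjusted p = 2.5e-12). Gclc, the catalytic subunit of the same enzyme, averaged 121 ± 7.76 CPM in LPS with IFN-gamma and 92.2 ± 2.34 CPM in LPS, a change of 0.39 ± 0.11. Both subunits were thus called higher, the modifier by the larger log2 change. Slc7a11, the cystine importer of system xc-, had 245, 376 and 427 CPM in LPS with IFN-gamma, against 57.2, 66.7 and 57.2 CPM in LPS, a change of 2.53 ± 0.17 (adjusted p = 2e-08). The lowest of its 3 IFN-gamma libraries, replicate 1, was still far above every LPS library. Gss, glutathione synthetase, changed by 1.08 ± 0.12 and Gsr, glutathione reductase, by 0.51 ± 0.08. Gss overlaps Acss2 on the other strand, and the libraries do not keep strand.

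With bryostatin present, Slc7a11 rose by 3.78 ± 0.18 on the log2 scale and Gclm by 3.1 ± 0.09. Slc7a11 had 505, 446 and 447 CPM in LPS with IFN-gamma and bryostatin, against 28.7, 35.8 and 37.2 CPM in LPS with bryostatin. Gclm had 601, 540 and 613 CPM in LPS with IFN-gamma and bryostatin, against 68.6, 68.8 and 67.1 CPM in LPS with bryostatin. Gclc rose by 0.85 ± 0.11 there.

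Of the 6 enzymes that use glutathione, 3 rose and Gpx1 fell, with a median log2 change of 0.3. Gsta4, a glutathione transferase for lipid aldehydes, averaged 123 ± 18.2 CPM in LPS with IFN-gamma and 36.1 ± 2.11 CPM in LPS, a log2 change of 1.77 ± 0.14. Mgst1, a membrane-bound transferase, changed by 0.43 ± 0.09, and Gpx4, which reduces lipid peroxides, by 0.31 ± 0.11. Gpx1, the abundant cytosolic glutathione peroxidase, averaged 167 ± 20.1 CPM in LPS with IFN-gamma and 209 ± 3.52 CPM in LPS, a change of -0.32 ± 0.12. Both calls were lost without any 1 of the LPS libraries or without LPS with IFN-gamma replicate 3, and also without replicate 2 of that group for Gpx1 and replicate 1 for Gpx4. With bryostatin present neither was called. Gstm1 had 766, 614 and 643 CPM in LPS with IFN-gamma, against 597, 549 and 507 CPM in LPS. Its change of 0.29 ± 0.12 did not pass (adjusted p = 0.067). Both export pumps rose, Abcc1 (which carries glutathione conjugates) by 1.09 ± 0.15 and Abcc4 by 0.7 ± 0.12.

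The thioredoxin and peroxiredoxin genes had the highest median of the 8 role groups, 2.31, and all 5 rose. Srxn1, sulfiredoxin, which restores overoxidised peroxiredoxins, had 685, 604 and 707 CPM in LPS with IFN-gamma, against 83.4, 86.4 and 84.4 CPM in LPS. Its log2 change was 2.97 ± 0.16 (adjusted p = 1.3e-09). Txnrd1, cytosolic thioredoxin reductase, had 1264, 1320 and 1430 CPM in LPS with IFN-gamma, against 254, 249 and 256 CPM in LPS, a change of 2.4 ± 0.2. No library of either gene overlapped between the groups. Prdx1 averaged 4222 ± 209 CPM in LPS with IFN-gamma and 849 ± 62.4 CPM in LPS, a change of 2.31 ± 0.13. Prdx6 changed by 1.5 ± 0.16 and Txn1, thioredoxin itself, by 0.79 ± 0.12. With bryostatin present the changes were 3.1 ± 0.16 for Srxn1, 2.67 ± 0.2 for Txnrd1 and 2.64 ± 0.13 for Prdx1.

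All 5 NADPH-supplying genes rose, by 0.31 (Me1, malic enzyme) to 1.32 (Pgd, the second NADPH-yielding step of the pentose phosphate pathway) on the log2 scale. G6pdx, the first step of that pathway, rose by 0.87 ± 0.12, and it overlaps Ikbkg on the other strand. Taldo1 and Tkt, of its non-oxidative branch, rose by 1.14 ± 0.11 and 0.42 ± 0.1. With bryostatin present all 5 rose again, with a median of 0.85.

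Among the 9 haem, quinone and carbonyl genes, 6 rose and Akr1b8 fell. Hmox1, heme oxygenase 1, which opens the haem ring, had 2743, 2374 and 2826 CPM in LPS with IFN-gamma, against 155, 151 and 149 CPM in LPS. Its log2 change of 4.13 ± 0.32 was the highest of the 38 (adjusted p = 2.7e-07). With bryostatin it had 3848, 3675 and 4512 CPM in LPS with IFN-gamma and bryostatin, against 154, 143 and 146 CPM in LPS with bryostatin, a change of 4.77 ± 0.33. The lowest of the 6 libraries with IFN-gamma was thus at 2374 CPM and the highest of the 6 with LPS but no IFN-gamma at 155 CPM. Blvrb, a biliverdin reductase, rose by 1.35 ± 0.11.

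Osgin1 and Nqo1 are both known NRF2 targets, and both rose. Osgin1, an oxidative stress-induced growth inhibitor, had 36.7, 32.7 and 33.6 CPM in LPS with IFN-gamma, against 5.67, 7.12 and 6.28 CPM in LPS, a log2 change of 2.43 ± 0.26 (adjusted p = 3.8e-06). Nqo1, NAD(P)H quinone dehydrogenase, had 25.6, 29.9 and 22.9 CPM in LPS with IFN-gamma, against 15.7, 19.8 and 17.2 CPM in LPS, a change of 0.57 ± 0.15 (adjusted p = 0.0088). With bryostatin present Nqo1 rose by 1.09 ± 0.16 and Osgin1 by 2.56 ± 0.26. Nqo1 had 30.9, 23.4 and 35.8 CPM in LPS with IFN-gamma and bryostatin, against 12.9, 15.5 and 14.0 CPM in LPS with bryostatin. Akr1b8, an aldo-keto reductase, had 17.7, 14.9 and 15.0 CPM in LPS with IFN-gamma, against 18.9, 18.8 and 21.6 CPM in LPS. Its change of -0.32 ± 0.11 lost its call in the fits without LPS replicate 3 or without LPS with IFN-gamma replicate 2 or 3.

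Of the superoxide and peroxide scavengers, Sod2, mitochondrial superoxide dismutase, had 823, 745 and 862 CPM in LPS with IFN-gamma, against 505, 539 and 564 CPM in LPS, a log2 change of 0.6 ± 0.08 (adjusted p = 3.9e-05). Cat, catalase, rose by 0.6 ± 0.06. Sod1, the cytosolic dismutase, was at 0.14 ± 0.11 and did not pass. Sod1 overlaps Scaf4 on the other strand.

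**Figure D3:**
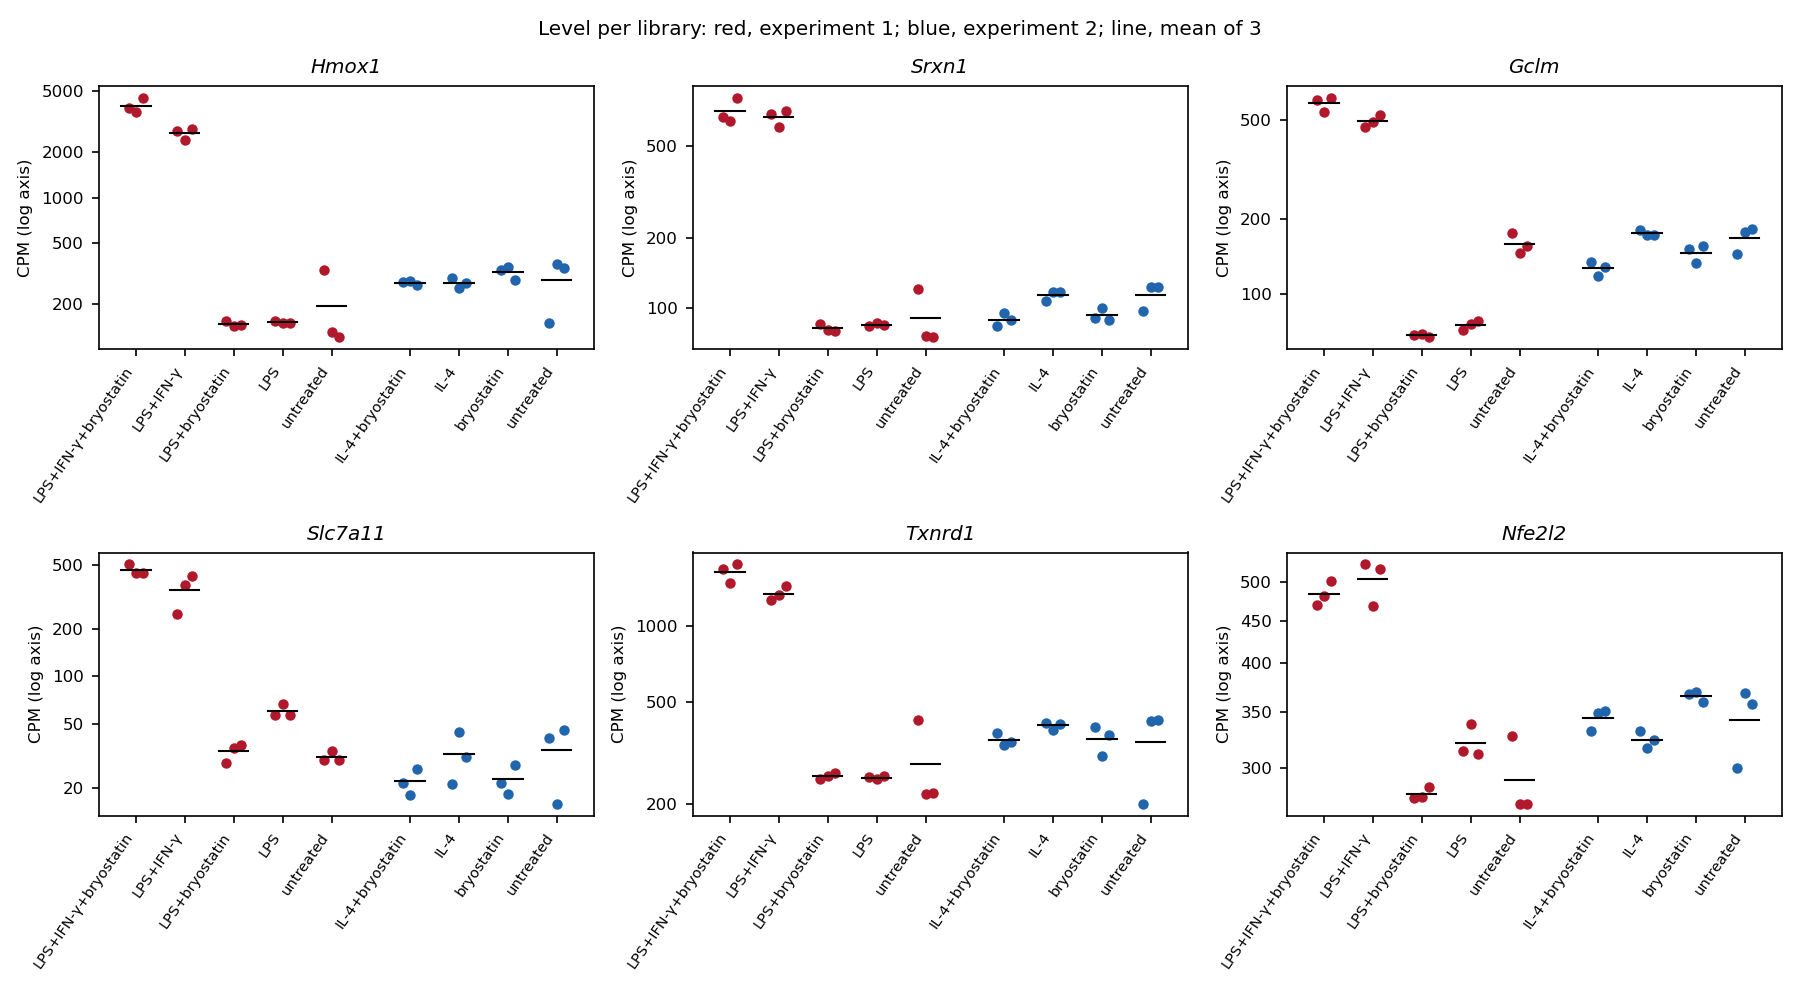
CPM per library on a log axis for Hmox1, Srxn1, Gclm, Slc7a11, Txnrd1 and Nfe2l2 (red, experiment 1; blue, experiment 2; short lines, means of 3). The 6 libraries with IFN-gamma lie above all others in each gene, and the Hmox1 libraries labelled untreated replicate 1 lie at 332 CPM in experiment 1 and 151 CPM in experiment 2, away from their groups.

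Per transcript length, in the authors' deposited FPKM, Hmox1 was the most abundant member in LPS with IFN-gamma, at 1551 ± 141 FPKM (SD, n = 3), followed by Prdx1 at 1423 ± 65.2 and Sqstm1 at 613 ± 63.4. In LPS the order was Gstm1 at 384 ± 31.5, Prdx1 at 286 ± 20.6 and Txn1 at 266 ± 10.2 FPKM. In untreated cells of experiment 1, Gstm1 at 673 ± 116 and Prdx6 at 370 ± 86.8 FPKM led, and Slc7a11 was the lowest of the 38 at 2.33 ± 0.18 FPKM. Neighbouring means were closer than their SDs added together for Hmox1 and Prdx1 in LPS with IFN-gamma and for Prdx1 and Txn1 in LPS, so their order is not resolved.

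The cell type markers moved with IFN-gamma too. The summed level of 10 astrocyte markers was 6785 to 7315 CPM in LPS with IFN-gamma, against 8899 to 9435 CPM in LPS, with 5 called lower and 0 higher. The astrocyte markers did not all move alike, since Slc1a3 averaged 1367 CPM in LPS with IFN-gamma and 1222 CPM in LPS, Slc1a2 averaged 562 CPM in LPS with IFN-gamma and 487 CPM in LPS, and Aldh1l1 averaged 290 CPM in LPS with IFN-gamma and 260 CPM in LPS, none of them called. The 10 microglia markers summed to 522 to 582 CPM in LPS with IFN-gamma, against 768 to 833 CPM in LPS, with 7 called lower. The 10 oligodendrocyte lineage markers summed to 380 to 427 CPM in LPS with IFN-gamma, against 730 to 756 CPM in LPS. Defining markers stayed detected: Cx3cr1 averaged 20.6 CPM in LPS with IFN-gamma and 52.8 CPM in LPS, and Aqp4 averaged 615 CPM in LPS with IFN-gamma and 1411 CPM in LPS. The 5 neuron markers summed to 107 to 127 CPM in LPS with IFN-gamma, against 62.0 to 66.6 CPM in LPS, mostly Tubb3, which averaged 106 CPM in LPS with IFN-gamma and 46.1 CPM in LPS. Of 4 neuron markers tested, 1 was called higher and 1 lower, with a median log2 change of -0.66. Endothelial markers summed to 46.0 to 63.9 CPM in LPS with IFN-gamma, against 39.3 to 41.8 CPM in LPS, with 2 of 4 tested called higher. Fibroblast and mural markers summed to 2327 to 3917 CPM in LPS with IFN-gamma, against 3586 to 4334 CPM in LPS (2 of 5 called lower), and ependymal ones to 259 to 291 CPM in LPS with IFN-gamma, against 375 to 393 CPM in LPS (3 of 5 called lower). In these bulk libraries fewer cells of a type and less RNA per cell cannot be told apart, and the part of cell makeup in the members' changes was not tested. With bryostatin present the astrocyte sum was 4803 to 4824 CPM in LPS with IFN-gamma and bryostatin, against 6840 to 7161 CPM in LPS with bryostatin.

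Among 84 further genes of the pathway, listed by role, 80 were tested. In LPS with IFN-gamma against LPS, 21 were higher and 16 lower, with a median log2 change of 0.0. The glutathione precursor list had 6 of 10 higher and 1 lower, and its named gene is Cth, cystathionine gamma-lyase, which makes cysteine. Cth rose by 2.16 ± 0.13 on the log2 scale. Of 9 NRF2 partners and repressors, 4 were higher and none lower, led by Mafg, a small MAF partner, at 1.02 ± 0.13. Of 21 other glutathione enzymes, 1 was higher and 7 lower. Gpx3, a secreted glutathione peroxidase, averaged 109 ± 6.44 CPM in LPS with IFN-gamma and 318 ± 14.5 CPM in LPS, a change of -1.54 ± 0.13. Of 7 haem and iron genes, 4 were higher and 1 lower, and Slc48a1, a haem transporter, rose by 1.59 ± 0.09. Sesn2, a stress-induced sestrin, rose by 1.26 ± 0.1, and Abcc3, another export pump, fell by 0.94 on the log2 scale.

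With bryostatin present, 22 of the 80 were higher and 11 lower. Mafg rose by 1.13 ± 0.13, Slc48a1 by 1.68 ± 0.1 and Sesn2 by 1.36 ± 0.1, while Gpx3 stood at -2.15 ± 0.14. Ggt5, a gamma-glutamyl transferase, rose by 2.86 ± 0.22 and Cbr3, a carbonyl reductase, by 0.92 ± 0.14. The copper chaperone Ccs stood at -0.34 ± 0.1 and was called lower.

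Members with and without an antioxidant response element core in their window were set side by side as a description. In LPS with IFN-gamma against LPS, the 12 with a match had a median log2 change of 0.78, from 0.14 to 2.97, and 11 were called higher. The 20 without one had a median of 0.58, from -0.32 to 2.53, with 14 called higher and 2 lower. The ranges overlap over most of their length. Slc7a11, at 2.53, has no match in its window.

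**Figure D4:**
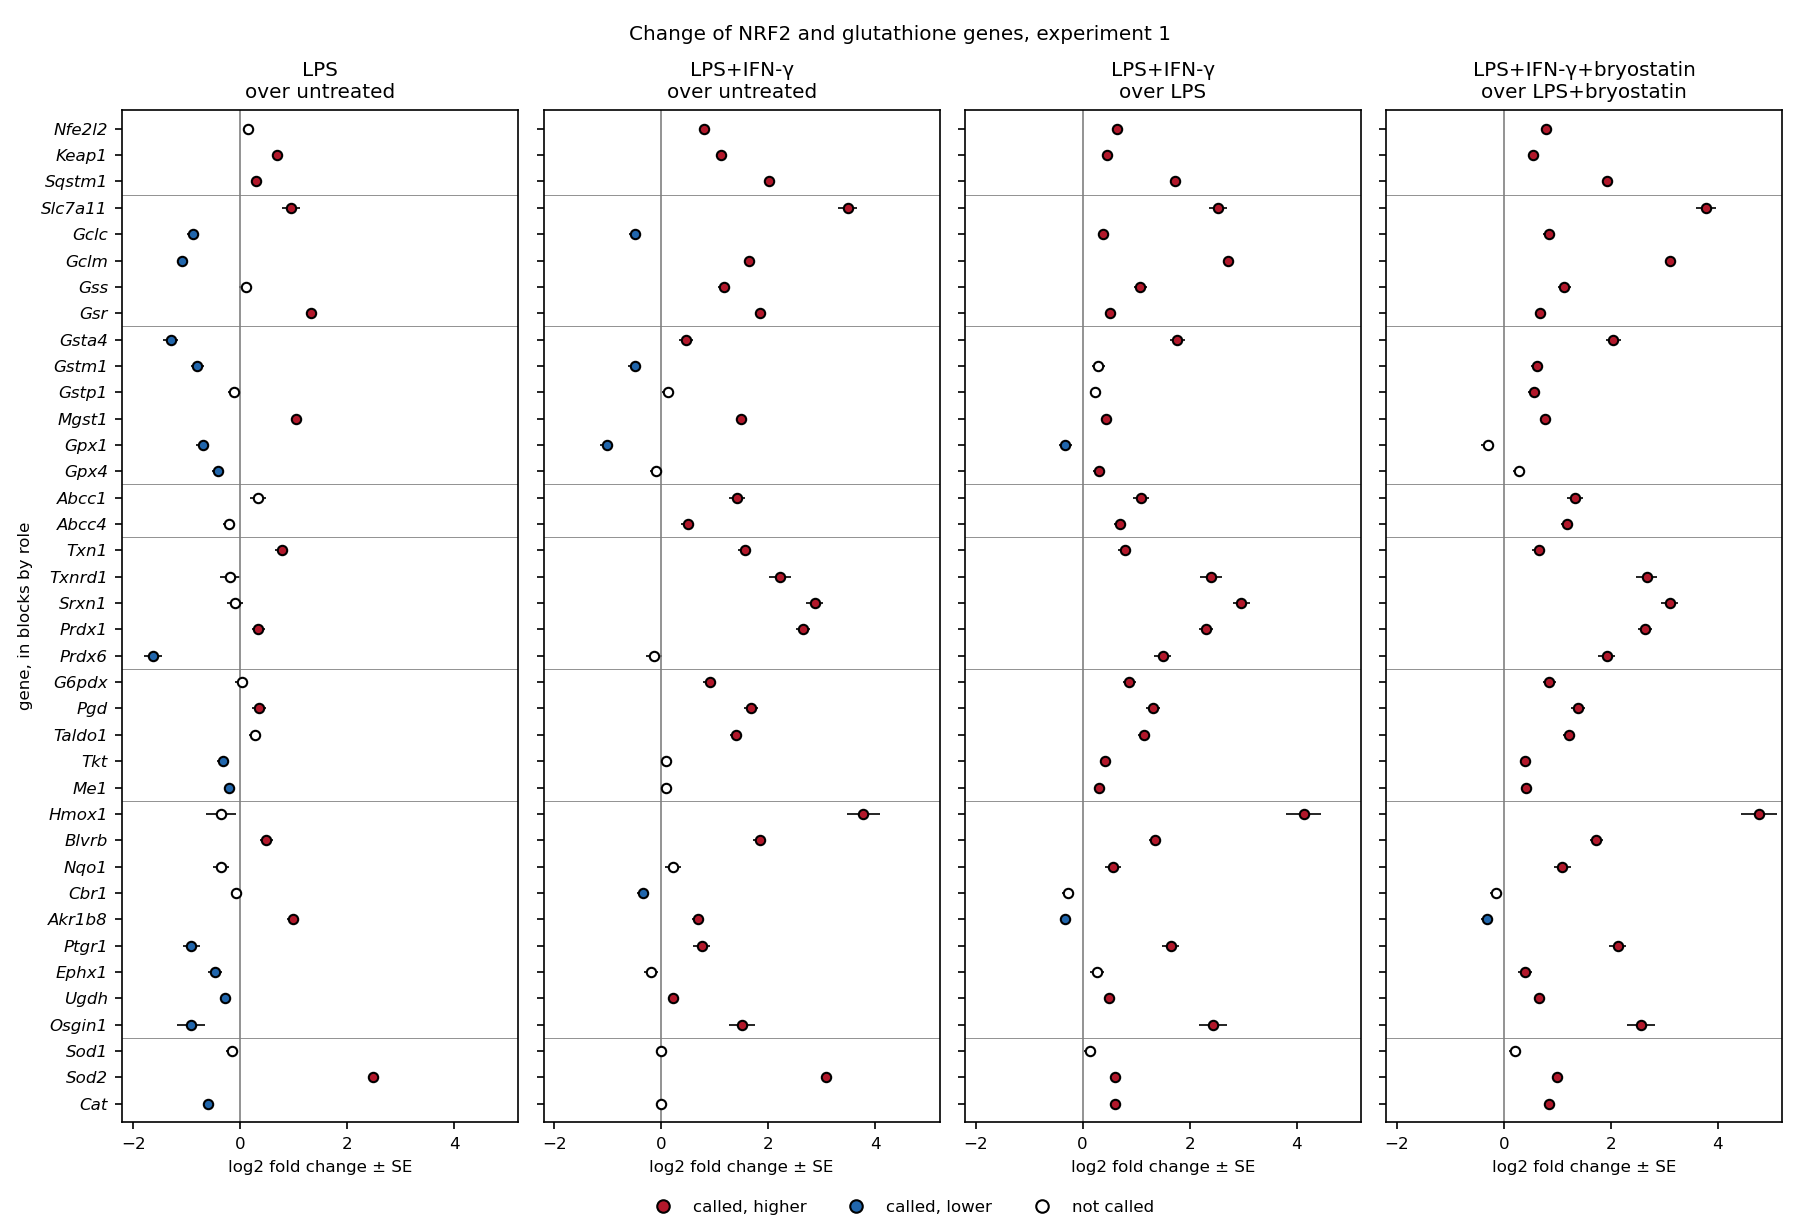
Log2 fold change with its SE for each gene in 4 comparisons of experiment 1, rows in blocks by role (red, called higher; blue, called lower; open, not called). Red points fill the 2 panels of IFN-gamma added to LPS, with 31 and 33 genes, while LPS over untreated has 11 red and 14 blue points.

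LPS alone split the set. Relative to untreated cells of experiment 1, 11 members were called higher, 14 lower and 13 not, where 19.5% of all genes were called higher and 18.8% lower. The median log2 change was -0.14 over the members and -0.01 over all genes. The summed level was 7269 to 7477 CPM in LPS and 7612 to 10096 CPM in untreated cells, with the highest in the library labelled replicate 1. Without that library 29 members were called, 17 higher and 12 lower, of which 23 had been called with it. Over all genes 7032 were called without that library, against 6164 with it. Tkt and Me1 lost their calls, and Hmox1, Nfe2l2, Txnrd1, Abcc1, Taldo1 and G6pdx gained one.

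Sod2 rose most with LPS. It had 505, 539 and 564 CPM in LPS, against 98.6, 93.6 and 95.4 CPM in untreated cells, a log2 change of 2.48 ± 0.09 (adjusted p = 1.7e-12). Without the library labelled replicate 1 the change was 2.51 ± 0.1. Gsr rose by 1.33 ± 0.08 (1.29 without that library), Mgst1 by 1.05 ± 0.09 (1.09 without it) and Txn1 by 0.78 ± 0.12 (0.69 without it). Slc7a11 had 57.2, 66.7 and 57.2 CPM in LPS, against 30.1, 33.9 and 30.0 CPM in untreated cells, a change of 0.95 ± 0.16 (0.92 without that library). Akr1b8 had 18.9, 18.8 and 21.6 CPM in LPS, against 10.8, 9.77 and 9.2 CPM in untreated cells, a change of 0.99 ± 0.11 (1.06 without that library). Keap1 had 97.6, 98.4 and 92.0 CPM in LPS, against 67.6, 57.5 and 55.2 CPM in untreated cells, a rise of 0.68 ± 0.08 (0.77 without it). None of these genes overlapped between the groups.

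Prdx6, which reduces phospholipid peroxides, fell most with LPS. It had 583, 559 and 522 CPM in LPS, against 2207, 1522 and 1427 CPM in untreated cells, a log2 change of -1.63 ± 0.16 (-1.41 without that library). Gsta4 stood at -1.3 ± 0.14 (-1.27 without it). Gclm had 71.9, 75.9 and 77.8 CPM in LPS, against 176, 146 and 156 CPM in untreated cells, a change of -1.08 ± 0.08 (-1.0 without it). The glutathione transferase Gstm1 had 597, 549 and 507 CPM in LPS, against 1160, 876 and 833 CPM in untreated cells, and was called lower at -0.8 ± 0.12 (-0.63 without it). So the cystine importer and glutathione reductase rose while both subunits of the first synthesis enzyme, Gclm and Gclc (-0.89 ± 0.11), fell. Osgin1 had 5.67, 7.12 and 6.28 CPM in LPS, against 19.5, 9.18 and 7.53 CPM in untreated cells. Its change of -0.92 ± 0.26 was -0.39 ± 0.14 without that library, still called.

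The direction of 3 members, Hmox1, Txnrd1 and Srxn1, turned on that library. Hmox1 had 155, 151 and 149 CPM in LPS, against 332, 130 and 121 CPM in untreated cells, a log2 change of -0.36 ± 0.28 that did not pass (adjusted p = 0.34). Without the library labelled replicate 1 it was called higher, at 0.27 ± 0.09 (adjusted p = 0.0263). Txnrd1 had 254, 249 and 256 CPM in LPS, against 425, 218 and 220 CPM in untreated cells, and Srxn1 had 83.4, 86.4 and 84.4 CPM in LPS, against 121, 76.1 and 75.0 CPM in untreated cells. Neither was called with all libraries, at -0.19 ± 0.19 and -0.1 ± 0.15, and without that library Txnrd1 was called at 0.21 ± 0.08 while Srxn1, at 0.17 ± 0.09, was not called. Nfe2l2 had 314, 339 and 312 CPM in LPS, against 328, 272 and 272 CPM in untreated cells, at 0.15 ± 0.08, and was called at 0.24 ± 0.07 without it. Nqo1 averaged 17.6 ± 2.05 CPM in LPS and 22.6 ± 3.07 CPM in untreated cells, at -0.36 ± 0.15, and passed in neither fit.

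Of the 80 further pathway genes, 18 were higher and 18 lower with LPS, and 25 and 19 without that library. Glrx, glutaredoxin, rose by 2.26 ± 0.08 (2.25 without it), Ggt5 by 2.01 ± 0.22 (1.71) and Sod3, extracellular superoxide dismutase, by 2.28 ± 0.31 (2.98). Bach1, which competes with NRF2 for its elements, rose by 0.88 ± 0.16 (0.86) and Prdx5 by 1.05 ± 0.11 (1.13). The iron exporter Slc40a1 averaged 1.54 ± 0.182 CPM in LPS and 14.9 ± 2.88 CPM in untreated cells, a change of -3.27 ± 0.24 (-3.33 without that library). Aldh1a1, an aldehyde dehydrogenase, averaged 81.8 ± 2.88 CPM in LPS and 234 ± 159 CPM in untreated cells, a change of -1.52 ± 0.32 that was -0.79 without that library. The summed astrocyte markers were 8899 to 9435 CPM in LPS, against 11619 to 14685 CPM in untreated cells, and the microglia markers 768 to 833 CPM in LPS, against 1264 to 1442 CPM in untreated cells. Of 10 astrocyte markers 2 were called higher and 5 lower, and of 10 microglia markers 3 higher and 7 lower. Fibroblast and mural markers summed to 3586 to 4334 CPM in LPS, against 1162 to 2478 CPM in untreated cells, with 4 of 5 called higher. Ependymal ones summed to 375 to 393 CPM in LPS, against 218 to 614 CPM in untreated cells, with 3 of 5 called lower. The low ends in untreated cells, 11619, 1264, 1162 and 218 CPM, were in the library labelled replicate 1. The part of these markers in the members' changes was not tested.

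LPS with IFN-gamma was also set against untreated cells. Here 25 members rose, 4 fell and 9 did not pass, where 29.5% of all genes were called higher and 28.6% lower. The median log2 change was 0.85 over the members and -0.01 over all genes. Without the library labelled replicate 1, 29 were called again, 28 of them the same genes, with Ugdh lost and Me1 gained. Hmox1 rose by 3.77 ± 0.31 (4.4 without that library), Slc7a11 by 3.48 ± 0.17 (3.46), Sod2 by 3.08 ± 0.09 (3.1) and Srxn1 by 2.87 ± 0.16 (3.14). Prdx1 rose by 2.65 ± 0.13 (2.73) and Txnrd1 by 2.22 ± 0.2 (2.61). Gclm rose by 1.63 ± 0.08 (1.71), Keap1 by 1.12 ± 0.08 (1.22) and Nfe2l2 by 0.79 ± 0.08 (0.89).

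The 4 members that fell against untreated cells were Gpx1 at -1.02 ± 0.12, Gstm1 at -0.5 ± 0.12, Gclc at -0.5 ± 0.1 and Cbr1, a carbonyl reductase, at -0.35 ± 0.11. Without that library they stood at -0.91, -0.34, -0.35 and -0.43. The call of Cbr1 was lost without untreated replicate 2, without LPS with IFN-gamma replicate 2 or 3, and in the fit of the compared groups alone. Prdx6, with 1843, 1375 and 1500 CPM in LPS with IFN-gamma and 2207, 1522 and 1427 CPM in untreated cells, was at -0.13 ± 0.15 (0.1 without that library) and called in neither fit. Nqo1, at 25.6, 29.9 and 22.9 CPM in LPS with IFN-gamma and 21.7, 26.0 and 20.1 CPM in untreated cells, was at 0.21 ± 0.15 (0.19 without it) and called in neither. Both comparisons with untreated cells, and that of LPS with IFN-gamma against LPS, share libraries, so they are given side by side only.

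Of the 80 further pathway genes, 32 were higher and 25 lower in LPS with IFN-gamma than in untreated cells, and 32 and 23 without that library. Ggct, which breaks down gamma-glutamyl amino acids, averaged 47.1 ± 2.7 CPM in LPS with IFN-gamma and 2.86 ± 0.625 CPM in untreated cells, a log2 change of 4.04 ± 0.16 (4.19 without that library). Nfe2l1, a relative of NRF2, rose by 1.53 ± 0.1 (1.69), Glrx by 2.62 ± 0.08 (2.62) and Sod3 by 2.31 ± 0.31 (3.01). Slc40a1 stood at -2.3 ± 0.22 (-2.36), Aldh1a1 at -1.58 ± 0.32 (-0.85) and Txnip, the thioredoxin-interacting protein gene, at -1.48 ± 0.12 (-1.61), each called lower in both fits. Against untreated cells the summed astrocyte markers were 6785 to 7315 CPM in LPS with IFN-gamma and 11619 to 14685 CPM in untreated cells, and those of microglia 522 to 582 CPM in LPS with IFN-gamma and 1264 to 1442 CPM in untreated cells. Of 10 astrocyte markers 1 was called higher and 7 lower, and of 10 microglia markers 2 higher and 7 lower. The part of these shifts in the members' changes was not tested.

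Bryostatin moved few members. Added to LPS, it was followed by 1 higher, 5 lower and 32 not called, where 3.35% of all genes were called higher and 3.55% lower. The median log2 change was -0.1 over the members and 0.0 over all genes. Akr1b8 rose, with 32.4, 30.9 and 31.3 CPM in LPS with bryostatin, against 18.9, 18.8 and 21.6 CPM in LPS, a change of 0.67 ± 0.1 (adjusted p = 0.00082). Slc7a11 fell, with 28.7, 35.8 and 37.2 CPM in LPS with bryostatin, against 57.2, 66.7 and 57.2 CPM in LPS, at -0.83 ± 0.16 (adjusted p = 0.0058). Sod2 fell, with 348, 334 and 367 CPM in LPS with bryostatin, against 505, 539 and 564 CPM in LPS, at -0.62 ± 0.08 (adjusted p = 0.0003). The libraries of these 3 genes did not overlap between the groups.

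Gstm1 had 378, 346 and 371 CPM in LPS with bryostatin, against 597, 549 and 507 CPM in LPS, and fell by 0.59 on the log2 scale. Abcc4 stood at -0.51 ± 0.12 and Gclc at -0.45 ± 0.11, both called lower. Their calls were lost in 4 and 2 of the fits that left out 1 library. Hmox1 averaged 147 ± 5.61 CPM in LPS with bryostatin and 151 ± 2.89 CPM in LPS, and its change of -0.04 ± 0.28 was not called, nor were Gclm at -0.14 ± 0.08, Nqo1 at -0.32 ± 0.16, Nfe2l2 at -0.2 ± 0.08 and Keap1 at -0.19 ± 0.08. In a fit of the 6 compared libraries alone 16 members were called, 4 higher and 12 lower, with Keap1, Nqo1 and Nfe2l2 among those lower. A fit of all 27 libraries called 3, and there Slc7a11, Gclc and Abcc4 lost their calls. Over all genes those fits called 3354 and 757, against 1108 in the fit of experiment 1. Of the 80 further genes, 5 were higher and 8 lower, with Gpx3 at 1.08 ± 0.13, Ggt5 at -1.8 ± 0.22 and Pir, which encodes pirin, at -0.82 ± 0.16. The summed astrocyte markers were 6840 to 7161 CPM in LPS with bryostatin, against 8899 to 9435 CPM in LPS, with 4 of 10 called lower and Aldh1l1 called higher (361 CPM in LPS with bryostatin and 260 CPM in LPS). Microglia markers summed to 564 to 624 CPM in LPS with bryostatin, against 768 to 833 CPM in LPS, with 4 of 10 called lower, and neuron markers to 96.1 to 108 CPM in LPS with bryostatin, against 62.0 to 66.6 CPM in LPS. The part of these markers was not tested.

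Added to LPS with IFN-gamma, bryostatin was followed by 2 members called higher, none lower and 36 not called, where 1.8% of all genes were called higher and 1.58% lower. Akr1b8 had 23.4, 24.4 and 28.1 CPM in LPS with IFN-gamma and bryostatin, against 17.7, 14.9 and 15.0 CPM in LPS with IFN-gamma, a log2 change of 0.67 ± 0.11 (adjusted p = 0.0021). Ptgr1, which reduces reactive alkenals, had 57.2, 53.1 and 82.8 CPM in LPS with IFN-gamma and bryostatin, against 44.1, 34.9 and 41.0 CPM in LPS with IFN-gamma. Its change was 0.68 ± 0.15 (adjusted p = 0.018). The call of Ptgr1 was lost without LPS with IFN-gamma replicate 2 or 3 or without replicate 3 of the group with bryostatin, and 1 member was then called. In the fit of all 27 libraries the call of Akr1b8 was lost instead.

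Of the 6 members most raised by IFN-gamma over LPS, Hmox1, Slc7a11, Gclm and Txnrd1 were higher with bryostatin in every library. None of the 6 passed the test. Srxn1 overlapped, with 668, 641 and 806 CPM in LPS with IFN-gamma and bryostatin, against 685, 604 and 707 CPM in LPS with IFN-gamma. Osgin1 was lower in every library, with 27.8, 28.7 and 30.8 CPM, against 36.7, 32.7 and 33.6 CPM in the same groups. The share of all genes without overlap was not counted. Hmox1 had 3848, 3675 and 4512 CPM in LPS with IFN-gamma and bryostatin, against 2743, 2374 and 2826 CPM in LPS with IFN-gamma, and its change of 0.6 ± 0.28 had an adjusted p of 0.33. Slc7a11 was at 0.41 ± 0.16 (adjusted p = 0.2), Gclm at 0.25 ± 0.08 (adjusted p = 0.12) and Txnrd1 at 0.28 ± 0.19 (adjusted p = 0.54). Hmox1 was called in the fit of the 6 compared libraries alone and Gclm by DESeq2. Each called 3 members, beside 558 and 856 of all genes. Nqo1 was at 0.2 ± 0.15, Nfe2l2 at -0.06 ± 0.08 and Keap1 at -0.09 ± 0.08. Of the 80 further genes, 4 were higher and 2 lower, with Gsto1, an omega-class glutathione transferase, at 0.81 ± 0.1 and Ggt5 at -0.85 ± 0.19. The summed astrocyte markers were 4803 to 4824 CPM in LPS with IFN-gamma and bryostatin, against 6785 to 7315 CPM in LPS with IFN-gamma. In the same order, microglia (400 to 499 against 522 to 582) and ependymal markers (212 to 233 against 259 to 291) were lower too. Oligodendrocyte lineage (428 to 437 against 380 to 427) and neuron markers (136 to 150 against 107 to 127) were higher. The endothelial sum and the fibroblast and mural sum overlapped. The part of these markers was not tested.

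The difference between these bryostatin effects, with LPS and IFN-gamma against with LPS, was tested as an interaction. No member passed in edgeR, where 0.118% of all genes did. At an unadjusted p under 0.05 there were 10 of 38 members, beside 1021 of all 16073 genes. DESeq2 called 1 member, Slc7a11, beside 95 genes. For Slc7a11 the difference of log2 changes was 1.25 ± 0.23 (edgeR adjusted p = 0.052, and 9.62e-05 to 0.523 over 17 settings, 4 of which called it). All 10 members had a positive difference, as had 33 of the 38, with a median of 0.19 over the members and -0.01 over all genes. Gclm was at 0.39 ± 0.11 (adjusted p = 0.36) and Sod2 at 0.4 ± 0.12 (adjusted p = 0.38).

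**Figure D5:**
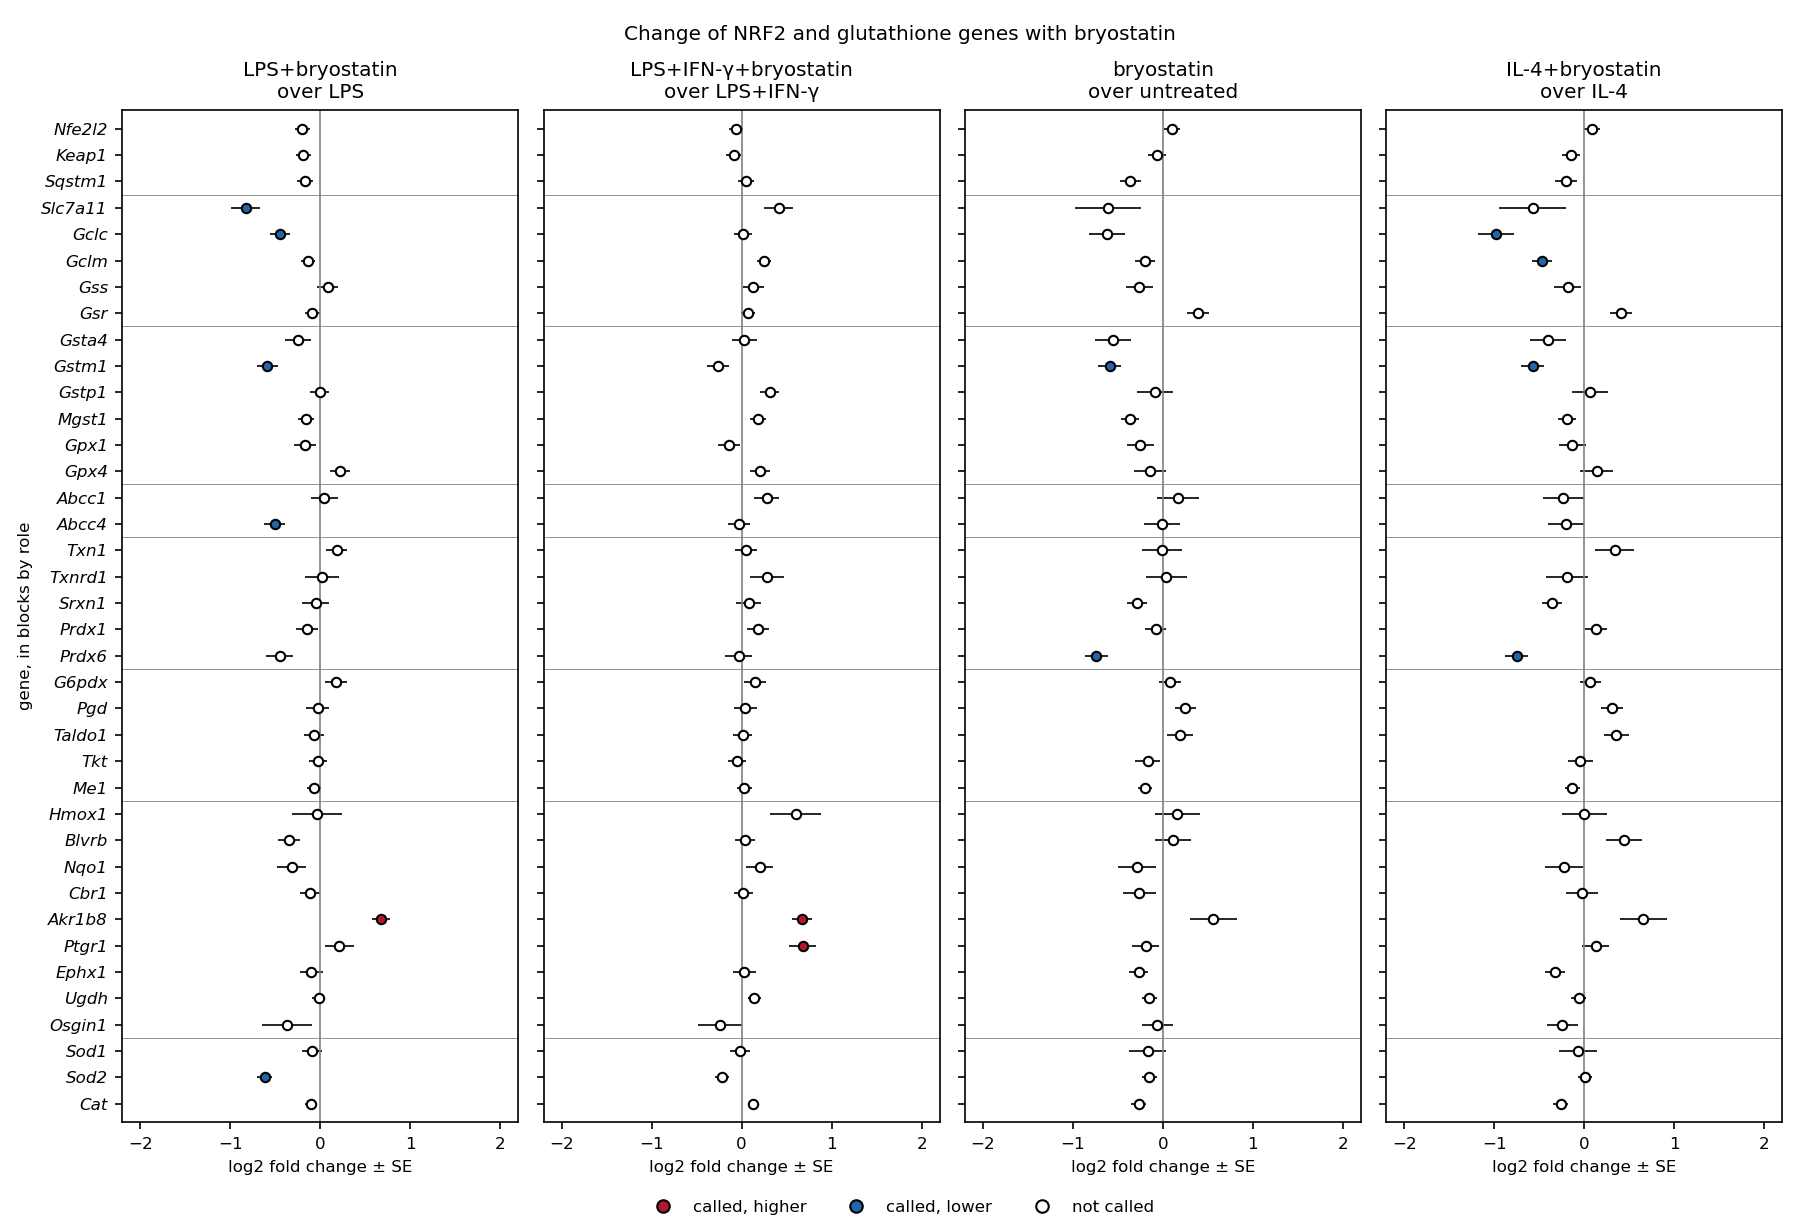
Log2 fold change with its SE for each gene in the 4 comparisons that add bryostatin (red, called higher; blue, called lower; open, not called). Calls number 6, 2, 2 and 4 from left to right, and Akr1b8 at 0.67 is the called higher member in both LPS settings.

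In experiment 2, bryostatin alone lowered 2 members and raised none, where 2.11% of all genes were called higher and 1.51% lower. Prdx6 had 1238, 1665 and 1317 CPM with bryostatin, against 2290, 2604 and 2172 CPM in untreated cells, a log2 change of -0.74 ± 0.13 (adjusted p = 0.015). Gstm1 had 759, 967 and 736 CPM with bryostatin, against 1245, 1337 and 1114 CPM in untreated cells, a change of -0.59 ± 0.13 (adjusted p = 0.03). Their libraries did not overlap, though both calls were lost without bryostatin replicate 1 or 3, which left 0 calls, and in a fit of the 6 compared libraries alone. The call of Gstm1 was also lost without untreated replicate 2, which left 1 call. At an unadjusted p under 0.05 there were 11 of 38 members, beside 2947 of all 15604 genes. DESeq2 called 5 members, beside 1337 genes.

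The library labelled untreated replicate 1 bears on this comparison too. Without it 4 members were called lower, Prdx6 at -0.78 ± 0.14, Gstm1 at -0.6 ± 0.13, Gclc at -0.85 ± 0.15 and Srxn1 at -0.41 ± 0.09. Without bryostatin replicate 2 there were 5, and without untreated replicate 3 there were 3. Over all genes, 429 were called without untreated replicate 1, 526 without bryostatin replicate 2 and 824 without untreated replicate 3. Without untreated replicate 1, bryostatin replicate 2 and replicate 2 of IL-4 with bryostatin together, 14 members were called, all lower, a setting chosen after seeing the data. They included Gsta4 at -0.62 ± 0.09, Mgst1 at -0.37 ± 0.07 and Gclm at -0.25 ± 0.07. That setting called 2284 of all 15729 genes tested. Hmox1 had 334, 349 and 286 CPM with bryostatin, against 151, 366 and 347 CPM in untreated cells. Its change of 0.16 ± 0.25 was not called, and stood at -0.16 ± 0.1 without the library labelled replicate 1. Gclm was at -0.2 ± 0.11, Slc7a11 at -0.61 ± 0.37, Nqo1 at -0.29 ± 0.21, Nfe2l2 at 0.1 ± 0.09 and Keap1 at -0.07 ± 0.1, none called. Of the 80 further genes, 1 was higher, Slc40a1 at 1.18 ± 0.24, and 1 lower, Pir at -0.54 ± 0.12. Without the library labelled replicate 1 neither passed, at 1.11 and -0.54, and 2 others were called lower, Sod3 at -0.64 and Aldh1a1 at -0.79. The summed astrocyte markers were 8354 to 10452 CPM with bryostatin, against 12509 to 17369 CPM in untreated cells. Ependymal markers were also lower, at 140 to 213 CPM with bryostatin, against 224 to 727 CPM in untreated cells. Neuron markers were at 80.1 to 104 CPM with bryostatin, against 53.5 to 82.6 CPM in untreated cells. The values of 17369, 727 and 82.6 CPM were in the library labelled replicate 1. The sums of the other lists overlapped. The part of these markers was not tested.

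With IL-4 present, bryostatin lowered 4 members and raised none, where 2.7% of all genes were called higher and 1.42% lower. Gclc had 113, 97.3 and 103 CPM in IL-4 with bryostatin, against 230, 197 and 192 CPM in IL-4, a log2 change of -0.98 ± 0.2 (adjusted p = 0.02). Gclm had 134, 118 and 129 CPM in IL-4 with bryostatin, against 181, 173 and 172 CPM in IL-4, a change of -0.47 ± 0.11 (adjusted p = 0.034). Both subunits of the first glutathione synthesis enzyme were thus called lower. The call of Gclm was lost whichever library of these groups was left out, without the filter on low counts, and with a replicate block. Among the fits that left out 1 library, Gclc kept its call only without IL-4 replicate 3. Prdx6 had 1125, 1357 and 1180 CPM in IL-4 with bryostatin, against 2261, 1963 and 1931 CPM in IL-4, a change of -0.75 ± 0.13 (adjusted p = 0.011). Gstm1 had 713, 768 and 665 CPM in IL-4 with bryostatin, against 1164, 1040 and 985 CPM in IL-4, a change of -0.57 ± 0.13 (adjusted p = 0.029). Like that of Gclm, the call of Gstm1 was lost whichever library of these groups was left out. The call of Prdx6 was lost without IL-4 replicate 1 or without replicate 1 or 3 of IL-4 with bryostatin.

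No library of these 4 genes overlapped between the groups. Leaving out 1 library left 0 to 2 calls, and a fit of the 6 compared libraries alone gave 15. The setting without the libraries that stand apart also gave 15, 4 higher and 11 lower, with Gclc at -0.94 ± 0.08 and Gclm at -0.43 ± 0.06. Taldo1, Pgd, Txn1 and Gsr, each with a higher mean CPM with bryostatin, were among the 15 of either fit. Over all genes the last 2 fits called 2703 and 2943, against 644 in the fit of experiment 2. Without IL-4 replicate 1, or without replicate 1 or 3 of IL-4 with bryostatin, no call was left, and without replicate 2 of either group or IL-4 replicate 3 there were 1 or 2. Hmox1 was at 0.0 ± 0.25, Slc7a11 at -0.57 ± 0.37, Nqo1 at -0.22 ± 0.21, Nfe2l2 at 0.09 ± 0.09 and Keap1 at -0.14 ± 0.1, none called. Among the 80 further genes 3 were higher and 1 lower, with Slc40a1 at 1.37 ± 0.25, Gsto1 at 0.52 ± 0.13 and Pir at -0.51 ± 0.12. Without the 3 libraries that stand apart 9 were higher and 10 lower. The summed astrocyte markers were 8283 to 9409 CPM in IL-4 with bryostatin, against 11486 to 12325 CPM in IL-4. In the same order, ependymal markers were also lower (141 to 170 against 213 to 249). Microglia (1645 to 2054 against 1180 to 1637) and oligodendrocyte lineage markers (843 to 1012 against 735 to 793) were higher. So were neuron markers (83.0 to 91.3 against 46.3 to 58.4). The endothelial sum and the fibroblast and mural sum overlapped. The part of these markers was not tested.

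IL-4 alone gave no call among the 38 members in edgeR or DESeq2, where 0.5% of all genes were called higher and 0.0833% lower. DESeq2 called 223 of all genes. At an unadjusted p under 0.05 there were 5 of 38 members, beside 1666 of all 15604 genes. All 5 members were lower: Blvrb at -0.63 ± 0.2, Gpx4 at -0.4 ± 0.18, Sqstm1 at -0.33 ± 0.12, Mgst1 at -0.32 ± 0.1 and Prdx1 at -0.29 ± 0.12. Without the library labelled untreated replicate 1 they stood at -0.45, -0.24, -0.22, -0.24 and -0.26. Hmox1 had 294, 255 and 275 CPM in IL-4, against 151, 366 and 347 CPM in untreated cells, at -0.07 ± 0.25. Without the 3 libraries that stand apart it was called lower at -0.38 ± 0.07 (adjusted p = 0.0121), as was Prdx1 at -0.27 ± 0.06. Without the library labelled untreated replicate 1 alone its change was also -0.38 and no member was called. None of the 80 further genes was called in either direction, with or without that library. Gclm was at 0.06 ± 0.11, Slc7a11 at -0.08 ± 0.36, Nqo1 at -0.39 ± 0.21, Nfe2l2 at -0.08 ± 0.09 and Keap1 at 0.01 ± 0.1.

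IL-4 with bryostatin against bryostatin gave no call in edgeR, none by DESeq2 and none at an unadjusted p under 0.05, where 0.775% of all genes were called higher and 0.135% lower. Over all 15604 genes, 732 were under that unadjusted p and DESeq2 called 223. Members' log2 changes lay between -0.31 and 0.14, with Hmox1 at -0.23 ± 0.25, Gclm at -0.21 ± 0.11, Slc7a11 at -0.04 ± 0.37, Nqo1 at -0.31 ± 0.21, Nfe2l2 at -0.09 ± 0.09 and Keap1 at -0.05 ± 0.1. The interaction of bryostatin with IL-4 gave no member in edgeR, none by DESeq2 and none at an unadjusted p under 0.05, where 0.0% of all genes were called. At that unadjusted p there were 327 of all 15604 genes, and DESeq2 called 4. Leaving out the library labelled untreated replicate 1, the interaction also gave 0 members. Neither result shows that the groups are alike, since the SEs of 0.25 for Hmox1 and 0.37 for Slc7a11 leave sizeable changes undetectable.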

How the data were processed

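The authors deposited whole-number read counts per gene, with no normalization, and these counts carry every test. They also deposited FPKM values, used here only to compare levels between genes. The submitters' processing notes name fastp, STAR, featureCounts and the mm10 build, and their versions are not given in the sources used here. Libraries were unstranded, per the labels, so reads of genes overlapping on opposite strands (Sqstm1, Sod1, Gss and G6pdx among the members) cannot be told apart, and Gstm1, Gstp1, Akr1b8, Prdx1, Prdx6, Cbr1 and G6pdx have close copies whose reads the counting may split.

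Groups and experiments came from the labels, and the 38 members, the pathway and marker lists and the tests were chosen with earlier results of these data known. The test was edgeR's robust quasi-likelihood F test (edgeR 4.0.16, R 4.3.3), after its group-wise filter on low counts and TMM scaling, with each experiment fitted apart and all its groups in the fit. There were 10 comparisons of group pairs and 2 interactions, and p-values were adjusted (Benjamini-Hochberg) across every gene tested. The fit was checked on simulated data. Levels are TMM-scaled CPM, shown as mean ± SD over 3 libraries. Named in each comparison were up to 6 called members with the highest and 4 with the lowest log2 change, plus Nfe2l2, Keap1, Hmox1, Nqo1, Gclm and Slc7a11, and of each pathway list the called gene with the largest change and a mean of at least 5 CPM in a group. Other members and genes named were chosen after their values were seen. Alternatives were DESeq2 1.42.0, its size factors in edgeR, no filter, the compared groups only, all 27 libraries in 1 fit, a replicate block, leaving out each library, and leaving out libraries that stand apart, the last of which (3 libraries) was added after seeing the data. Same-numbered libraries deviated together, with every r over 0.1, only between IL-4 with bryostatin and bryostatin (r of 0.284 to 0.693), and there the block changed no call.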

Additional observations from a re-analysis of the deposited data

How the results depend on the processing

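The 2 comparisons that add IFN-gamma to LPS, and LPS and LPS with IFN-gamma against untreated cells, kept their counts within 1.5 times under every alternative run. For LPS with IFN-gamma over LPS, leaving out 1 library gave 30 to 33 calls, with bryostatin present 32 to 34, for LPS with IFN-gamma over untreated 27 to 29, and for LPS over untreated 20 to 29. Counts for bryostatin moved. Bryostatin with LPS gave 6 calls, 16 with the compared groups only and 3 with all 27 libraries, and bryostatin with LPS and IFN-gamma gave 2, 3 by DESeq2, 3 with the compared groups only, 1 with all 27 libraries and 1 to 2 leaving out 1 library. Bryostatin over untreated gave 2 calls, 5 by DESeq2, 7 with all 27 libraries, 0 with the compared groups only, 4 without both untreated libraries labelled replicate 1, 14 without the 3 libraries that stand apart, and 0 to 5 leaving out 1 library. Bryostatin with IL-4 gave 4, 8 by DESeq2, 7 with all 27 libraries, 15 with the compared groups only, 15 without the 3 libraries, and 0 to 2 leaving out 1 library. IL-4 over untreated gave 0 members beside 91 genes, and 2 beside 333 genes without the 3 libraries. The interaction of bryostatin with IFN-gamma gave 0, and 1 by DESeq2, with a replicate block, or leaving out 1 library (0 to 1). Calls over all genes moved too. Bryostatin with LPS gave 1108 genes, 3354 with the compared groups only and 757 with all 27 libraries. With LPS and IFN-gamma it gave 543, 856 by DESeq2 and 366 with all 27 libraries. Bryostatin over untreated gave 565, 1337 by DESeq2, 9 with the compared groups only and 2284 without the 3 libraries. Bryostatin with IL-4 gave 644, 1213 by DESeq2, 2703 with the compared groups only and 2943 without the 3 libraries. The cause of these moves was not tested. Only between IL-4 with bryostatin and bryostatin did libraries of every number deviate together. The labels give no shared animal or day. These libraries also shared the sign of the trend with gene length. It was 0.36 and 0.46 for replicate 1, -0.43 and -0.55 for replicate 2, and 0.22 and 0.47 for replicate 3. Whether the numbers pair cultures was not tested. The replicate block gave 1 call in the interaction of bryostatin with IFN-gamma. Elsewhere it gave counts within 1.5 times of those without it, with 23 for LPS over untreated.

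Among the called members and the 6 genes named in every comparison, direction turned for the following log2 changes, none of them called with all libraries. Hmox1 in LPS over untreated was 0.27 without both untreated libraries labelled replicate 1, and likewise without the experiment 1 one alone. Without both, Hmox1 in bryostatin over untreated was -0.16, Nfe2l2 there -0.01, and in IL-4 over untreated Gclm was -0.04 and Slc7a11 0.06. Over all 38 members, leaving out both untreated libraries labelled replicate 1 turned 3 members in LPS over untreated (Txnrd1 at 0.21 and Srxn1 at 0.17 beside Hmox1), 1 in LPS with IFN-gamma over untreated (Prdx6 at 0.1), 8 in bryostatin over untreated and 5 in IL-4 over untreated. Without the 3 libraries the same 4 changes of Hmox1, Nfe2l2, Gclm and Slc7a11 in experiment 2 were -0.22, -0.01, -0.04 and 0.06, and Keap1 in IL-4 with bryostatin over bryostatin was 0.03. Leaving out 1 library, Hmox1 ranged over -0.38 to 0.15 in IL-4 over untreated, -0.61 to 0.27 in LPS over untreated and -0.16 to 0.36 in bryostatin over untreated. Slc7a11 ranged over -0.41 to 0.19 in IL-4 over untreated and -0.19 to 0.14 in IL-4 with bryostatin over bryostatin. Keap1 ranged over -0.13 to 0.07 in IL-4 with bryostatin over bryostatin and -0.18 to 0.01 in bryostatin over untreated, Gclm over -0.04 to 0.12 in IL-4 over untreated, and Nfe2l2 over -0.01 to 0.15 in bryostatin over untreated. Each group has 3 libraries, so small changes are undetectable for members with wide spread.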
